A study of Mus musculus with 2 samples.

Results

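The fibro cluster of the brainstem nuclei held 266 of 18281 nuclei, 132 from the WT library and 134 from the HET library, and its members were every nucleus to which the deposited annotation gave that cluster name. The same annotation gave each nucleus a second name, taken from a reference of known cell types, and by that reference label the cluster was mixed. Neurons was the label of 111 nuclei, Astrocytes of 95, Fibroblasts of 40, Oligodendrocytes of 17 and Microglia of 3. The question addressed was which of these nuclei carried the genes of leptomeningeal fibroblasts, which those of mural cells, and which something else. The answer in the counts was that 256 of the 266 nuclei met a rule for fibroblast markers, under every label, and that 6 were marked as mural. Nuclei with different transporter genes were found under each of the larger labels. Of the 256, 49 formed a group with the transporter gene Slc47a1. In it 11 of the 16 fibroblast markers were at least 2-fold lower than in the rest of the cluster, against 17.0% of all genes. There 2 of 4 measured arachnoid barrier genes were at least 2-fold higher, against 7.09% of all genes. Whether these 49 were barrier cells was not tested.

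Single-nucleus RNA sequencing was done on the brainstem of 1 WT mouse, wildtype for Scn1a, and 1 HET mouse, Scn1aA1783V/WT. The A1783V missense change in the sodium channel gene Scn1a models Dravet Syndrome. The HET mouse came from a male with a floxed stop Scn1a A1783V allele and a female with Sox2-Cre, on a C57BL/6J background. The Sox2-Cre recombinase acts in the early embryo and so throughout the body. The WT mouse was an age-matched wildtype offspring of such breeding. Both mice were female and were sampled at postnatal day 41.

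Leptomeningeal fibroblasts form the pia and the arachnoid, the membranes on the brain surface, and follow the larger vessels inwards. They lay down collagens and the laminin-rich basement membrane under which astrocyte endfeet sit, they make retinoic acid, and they carry many transporters that clear solutes from the cerebrospinal fluid. Mural cells, the pericytes and smooth muscle cells, wrap the vessels instead. Fibroblasts and pericytes share several genes, Pdgfrb among them, so that no gene alone separates them.

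There was 1 library per genotype, so no difference between WT and HET had a replicate check, and none was tested. Levels are given as CPM, the UMIs (unique molecules counted) of a gene per 1000000 UMIs summed over a group of nuclei, with exact Poisson intervals, and shares carry exact Clopper-Pearson intervals. All intervals are 95% intervals and cover counting error only. The cluster and the labels were made from these counts, so the levels of genes inside the cluster are a description. The fibro nuclei held 459407 UMIs in WT and 418790 in HET, with medians of 2655.5 and 2627 UMIs per nucleus, and no barcode of theirs was among the 23 that the libraries shared. The doublet score, the deposited value for the likelihood that a barcode held more than 1 nucleus, had a median of 0.306 in the cluster. Over all nuclei of a library its median was 0.169 in WT and 0.116 in HET. The score was over its library's own 95th percentile in 14 WT and 77 HET fibro nuclei.

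The fibro cluster took up 1.43% of the WT nuclei (1.19 to 1.69%) and 1.49% of the HET nuclei (1.25 to 1.76%). These shares differed by less than their counting intervals. Without the nuclei of the 5% highest doublet scores, the HET share was 0.665%. That filter took out 77 of the 134 HET fibro nuclei but 14 of the 132 in WT. The closeness of the WT and HET shares thus depended on keeping these nuclei. The Neurons label was given to 37.1% of the WT and 46.3% of the HET fibro nuclei, the Astrocytes label to 39.4% and 32.1%, and the Fibroblasts label to 12.9% and 17.2%, with overlapping intervals for each label. The Oligodendrocytes label was given to 12 WT and 5 HET nuclei. All 40 nuclei in the series with the Fibroblasts label were in this cluster.

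The cluster carried the markers that define it. Dcn, which encodes the matrix proteoglycan decorin, stood at 362 CPM against 4.50 CPM in all other nuclei, with a UMI in 46.6% of the fibro nuclei (median 2637 UMIs) and in 3.01% of the oligo cluster nuclei (median 2807 UMIs), which served as a background of free RNA at a similar depth. For Col1a2, a chain of the fibrillar type I collagen, the cluster stood at 283.5 CPM against 3.25 CPM, with a UMI in 43.6% of the nuclei against 1.66% of the oligo nuclei. Pdgfrb, a receptor for platelet-derived growth factor, was at 155 CPM in the cluster, at 379 CPM in the endo cluster, which also held pericyte genes, and at 7.71 CPM in all other nuclei together. Among the genes with the largest ratio to all other nuclei were the transcription factors Osr1 (66 UMIs against 13 in all other nuclei), Tbx18 (111 against 24) and Foxd1 (192 against 84). The transporters Slc47a1, Slc6a13 and Slc22a6 stood 516-fold, 483-fold and 362-fold above the other nuclei, and Aldh1a2, which makes retinoic acid, 392-fold.

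Nuclei were then classed by the summed UMIs of 16 leptomeningeal fibroblast markers and of 19 pericyte and smooth muscle markers. A nucleus with at least 3 UMIs of the fibroblast list and more of it than of the mural list was called fibroblast-marked, and the reverse mural-marked. In the fibro cluster 256 nuclei were fibroblast-marked (96.2%, 93.2 to 98.2%), 6 mural-marked (2.26%, 0.832 to 4.84%) and 4 unmarked. The counts were 126, 3 and 3 in WT and 130, 3 and 1 in HET. The same rule marked 1 of 344 endo nuclei, 33 of 1318 astro nuclei, 25 of 4149 oligo nuclei and 446 of 9111 neuron.1 nuclei as fibroblast, while 188 of the 344 endo nuclei were mural-marked. It marked more in some other clusters: 193 of 453 neuron.4 nuclei (42.6%, median 13029 UMIs), 26 of 125 neuron.6 nuclei (20.8%) and 95 of 462 neuron.3 nuclei (20.6%). In epend.1 it marked 17 of 174, and in neuron.7, also deep, 0 of 79. Only 11 fibro nuclei lay within 1 UMI of the minimum. Thinned to 1000 UMIs each, 84.2% of the fibro nuclei still met the rule.

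**Figure D1:**
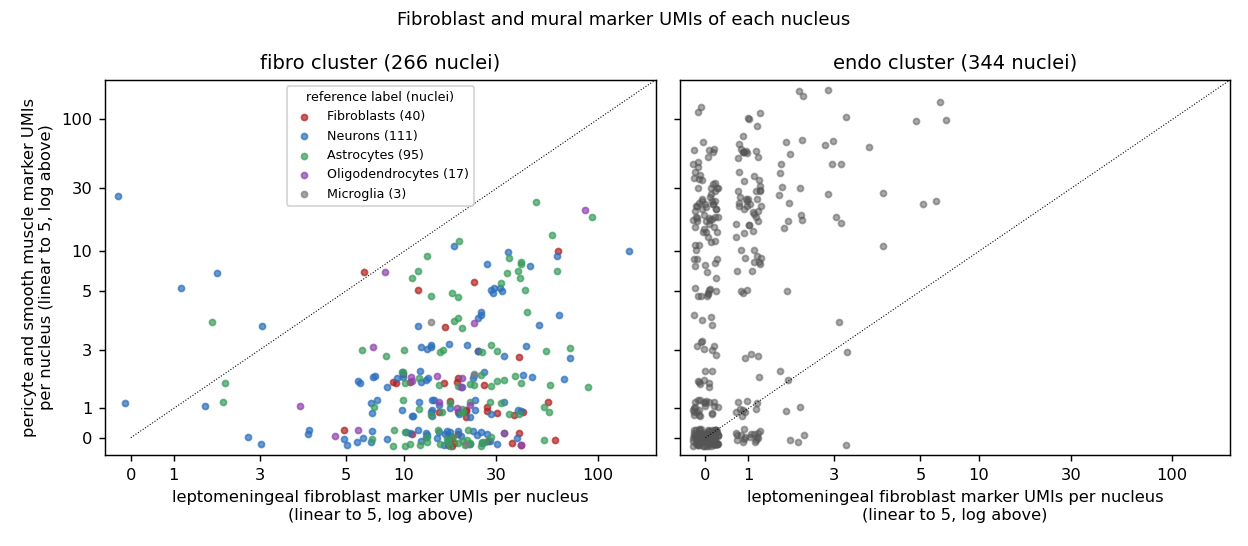
Each point is 1 nucleus, with its leptomeningeal fibroblast marker UMIs on the horizontal axis and its pericyte and smooth muscle marker UMIs on the vertical axis, both linear to 5 UMIs and logarithmic above and with a small random offset. The fibro nuclei of every reference label lie below the dotted line of equal counts except for a handful, and the nuclei of the endo cluster lie above it or near 0.

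The fibroblast-marked class ran through every label. It held 105 of the 111 nuclei labelled Neurons, 92 of the 95 labelled Astrocytes, 39 of the 40 labelled Fibroblasts, all 17 labelled Oligodendrocytes and all 3 labelled Microglia. The median nucleus had 15 fibroblast marker UMIs with the Neurons label, 20 with Astrocytes, 19 with Fibroblasts and 15 with Oligodendrocytes, against a median of 0 in the oligo and neuron.1 clusters. As a summed level the list stood at 5712 CPM with the Neurons label (5479 to 5953), 8509 with Astrocytes (8173 to 8855), 8076 with Fibroblasts (7572 to 8604) and 4846 with Oligodendrocytes (4348 to 5385). All other nuclei stood at 81.6 CPM. The list was thus lowest with the Oligodendrocytes and Neurons labels, and each label lay above the 211 CPM of the endo cluster, the highest of the 4 clusters compared. The Neurons label was not uniform. The list stood at 3248 CPM in 21 of its nuclei, those rich in neuron markers, and at 7146 CPM (6818 to 7486) in the other 90.

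Mural genes were sparse. The pericyte list stood at 593 CPM in the cluster and at 5427 CPM in the endo cluster. Most of the pericyte list UMIs in the fibro nuclei came from Vtn, Atp13a5 and Pdgfrb. Vtn (vitronectin) was at 183 CPM with 161 UMIs, Atp13a5 at 166 CPM with 146 UMIs and Pdgfrb at 155 CPM with 136 UMIs. Several other genes of the list were near the background. Rgs5, a regulator of G protein signalling, had 11 UMIs (12.5 CPM against 1099 in the endo cluster). The potassium channel subunit Kcnj8 had 3 (3.42 against 188 CPM), Abcc9 had 11 (12.5 against 406 CPM) and Higd1b had 2. Kcnj8 had a UMI in 1.13% of the fibro nuclei, 0.699% of the oligo nuclei and 20.6% of the endo nuclei. Of the smooth muscle genes, Cnn1 and Des had no UMI, and Acta2 had 8 UMIs in 4 nuclei.

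The 6 mural-marked nuclei were single cases and not a group. Of these, 4 had the Neurons label, 1 Fibroblasts and 1 Astrocytes. A HET nucleus labelled Neurons had 24 smooth muscle and 2 pericyte UMIs and no fibroblast marker UMI. It held all 11 UMIs of the smooth muscle myosin Myh11 in the cluster, together with 5 of the 8 of the smooth muscle actin Acta2. Another HET nucleus labelled Neurons had 3 UMIs of Abcc9, and a WT nucleus with the same label had 3 of Rgs5. The other 3 had no UMI of Rgs5, Kcnj8 or Abcc9, and 2 of them had at least 3 fibroblast marker UMIs as well. Among the 4 unmarked nuclei, a WT nucleus labelled Neurons had 52 neuron marker UMIs and no fibroblast marker UMI, and a WT nucleus labelled Astrocytes had 10 astrocyte marker UMIs against 2 of the fibroblast list.

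In the nuclei labelled Astrocytes, astrocyte genes differed in level. Slc1a3, a glutamate transporter, stood at 689 CPM in the nuclei with that label and at 429 CPM in the astro cluster. The genes that mark astrocytes more narrowly were low. Slc1a2, the main astrocyte glutamate transporter, was at 130 CPM against 2697 in the astro cluster, the water channel Aqp4 at 66.8 against 485, and Aldh1l1, a folate enzyme, at 14.1 against 81.2. Slc1a2 reached the lower quartile of the astro nuclei, 1468 CPM within a nucleus, in 2 of the 95 nuclei. Slc1a3 was at 324 CPM with the Neurons label and at 253 CPM with Fibroblasts. The 8 genes most raised with the Astrocytes label over the rest of the cluster included Wnt6, a secreted signal (33 UMIs in 25 nuclei, 4.06-fold, 2.19 to 7.76), the transcription cofactor Eya4 (3.81-fold), the manganese transporter Slc30a10 (3.48-fold) and the sulfate transporter Slc13a4 (2.76-fold, 2.10 to 3.64).

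The nuclei labelled Neurons fell into a larger and a smaller set. Within a nucleus the neuron markers had a median CPM of 3210 with that label, 2135 with Fibroblasts, 1824 with Astrocytes and 1904 in the oligo cluster, which should lack these genes. In the neuron.1 cluster the median was 14491. Of the 111 nuclei, 90 lay within the range of the other labels, which reached 5721, and had a median of 2636. The other 21 (12 WT and 9 HET) lay above it, from 5770 to 16455 with a median of 9155, and had a median depth of 6753 UMIs against 2294 for the 90. Yet 20 of the 21 were fibroblast-marked, with a median of 18 fibroblast marker UMIs. The rule by itself also marked 42.6% of the neuron.4 nuclei, which had a median of 13029 UMIs. The doublet score of the 21 had a median of 0.307, against 0.305 for the 90 and 0.147 in the neuron.1 cluster. Whether the 21 held 2 nuclei was not tested. The synaptic genes Syt1 and Snap25 stood at 984 and 372 CPM in the 21 nuclei, and the fibroblast list at 3248 CPM. The gene with the highest ratio for the label, Syt16, a relative of the synaptotagmins, had 31 UMIs in 12 nuclei against 1 UMI in the rest of the cluster, a ratio of 37.9 with a counting interval of 6.32 to 1546, and Fstl5, a follistatin relative, was 10.9-fold higher (5.45 to 24.6).

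With the Oligodendrocytes label, myelin genes and fibroblast genes were in the same nuclei. Mog, a myelin glycoprotein, was at 618 CPM against 921 in the oligo cluster, 50.6 with the Fibroblasts label and 63.3 with Astrocytes. Mbp, myelin basic protein, was at 1629 CPM against 3661. The oligodendrocyte list had a median of 26 UMIs in these 17 nuclei and of 5 with the Neurons, Astrocytes and Fibroblasts labels, while fibroblast marker UMIs ran from 4 to 86. The median doublet score was 0.295, below that of the cluster. In another clustering of the deposited annotation, 13 of the 17 were placed in a cluster of 453 nuclei with 224 oligo, 118 astro and 88 micro nuclei, whereas 248 of the 266 fibro nuclei were placed in a cluster of 355 with 79 endo nuclei.

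The nuclei labelled Fibroblasts had the highest level of fibrillar collagen genes. The fibrillar collagen list stood at 2675 CPM (2389 to 2986) with that label, against 800 with Neurons (714 to 893) and 890 with Astrocytes (784 to 1007). Col1a1 was at 515 CPM against 94.8 in the rest of the cluster, a 5.43-fold difference (3.80 to 7.75), and Col3a1 4.36-fold higher (3.17 to 5.96). The sulfate transporter Slc26a2, with 41 UMIs in 13 nuclei, was 7.73-fold higher (4.79 to 12.6). Adamtsl1, a matrix protein, was 4.67-fold and Nr4a2, a nuclear receptor, 4.41-fold higher. Pdgfra and Lama1, also fibroblast genes, did not follow the label: they were at 219 and 405 CPM with Fibroblasts and at 232 and 570 CPM with Astrocytes.

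**Figure D2:**
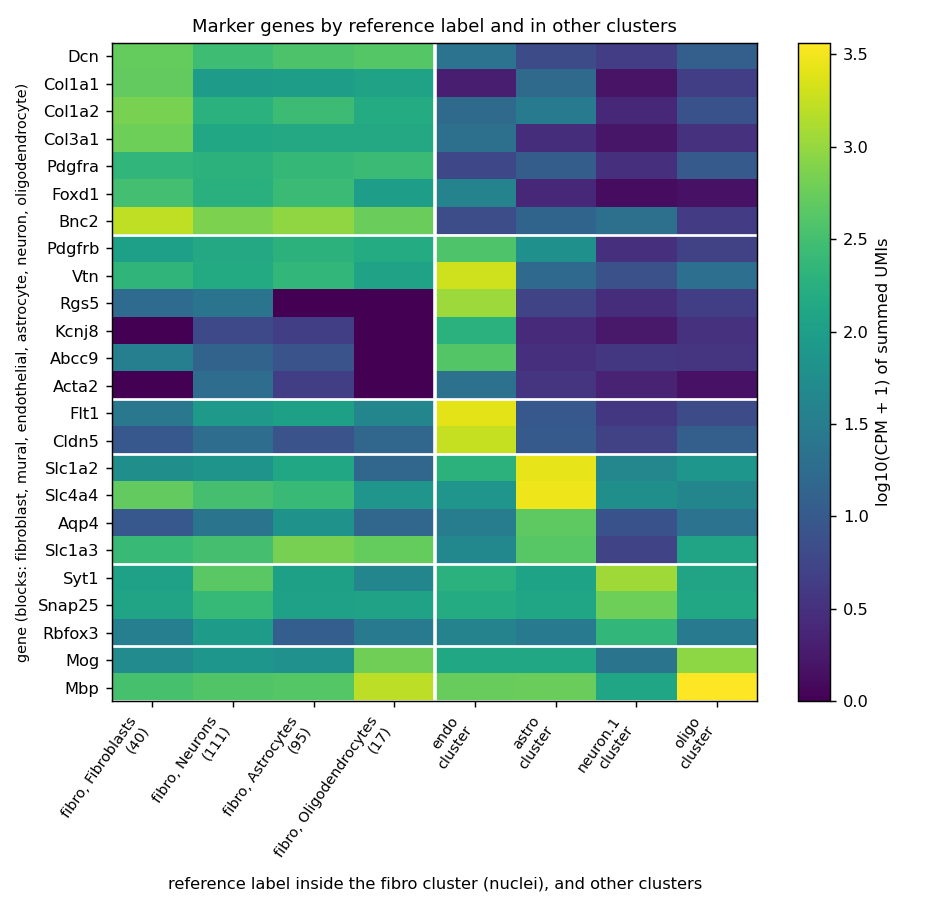
Colour gives log10(CPM + 1) of the summed UMIs of marker genes (rows, in blocks by cell type) for the fibro nuclei of each reference label (left of the line, with the number of nuclei) and for other clusters (right). The fibroblast genes are mostly higher left of the line than right of it, Rgs5 and Kcnj8 are far below their endo level, and Slc1a3 is high with the Astrocytes label where Slc1a2 is not.

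A pair of transporter genes divided the nuclei within the labels as well as between them. Slc47a1, a proton-coupled exporter of organic cations (GRCm38 chromosome 11, 61343401 to 61378345, minus strand), and Slc6a20a, a sodium-dependent transporter of proline (chromosome 9, 123634770 to 123678885, minus strand), were almost never found in the same nucleus. At least 1 UMI of both was seen in 4 nuclei, of Slc47a1 without the other in 55, of Slc6a20a without the other in 146, and of neither in 61. Outside the cluster Slc47a1 was close to absent, with a UMI in 0.506% of oligo nuclei against 22.2% of the fibro nuclei. Slc6a20a had a UMI in 56.4% of the fibro nuclei, 0.964% of the oligo nuclei and 29.9% of the endo nuclei. Nuclei with at least 2 UMIs of 1 of the genes and more of it than of the other were grouped by it. This split was chosen after the values were seen and gets no test.

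The Slc47a1 group held 49 nuclei, the Slc6a20a group 117, and 100 nuclei were in neither. In WT the counts were 19, 66 and 47, and in HET 30, 51 and 53. The Slc47a1 group thus made up 14.4% of the WT (8.89 to 21.6%) and 22.4% of the HET fibro nuclei (15.6 to 30.4%), and the Slc6a20a group 50.0% (41.2 to 58.8%) and 38.1% (29.8 to 46.8%). The intervals overlapped. The fibroblast-marked rule was met by all 49 nuclei of the Slc47a1 group, 115 of the 117 and 92 of the 100. Slc47a1 is itself on the fibroblast list, so membership of its group goes most of the way to meeting the rule. Of the 16 fibroblast markers, 2 were at least 2-fold higher in that group than in the rest of the cluster, Slc47a1 and Bnc2. There 11 were at least 2-fold lower, among them Dcn, Col1a1, Col3a1, Pdgfra and Lama1, against 7.09% higher and 17.0% lower of all genes. By label, the Slc47a1 group took 15 of the 40 nuclei labelled Fibroblasts, 13 of 95 labelled Astrocytes and 19 of 111 labelled Neurons, and the Slc6a20a group took 7, 59 and 44. The split thus went partly with the labels: a Slc6a20a UMI was seen in 27.5% of the nuclei labelled Fibroblasts (14.6 to 43.9%), 51.4% of those labelled Neurons (41.7 to 61.0%) and 73.7% of those labelled Astrocytes (63.6 to 82.2%). The median depths were 2841, 2887 and 2326.5 UMIs, and the median doublet scores 0.306, 0.313 and 0.297.

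**Figure D3:**
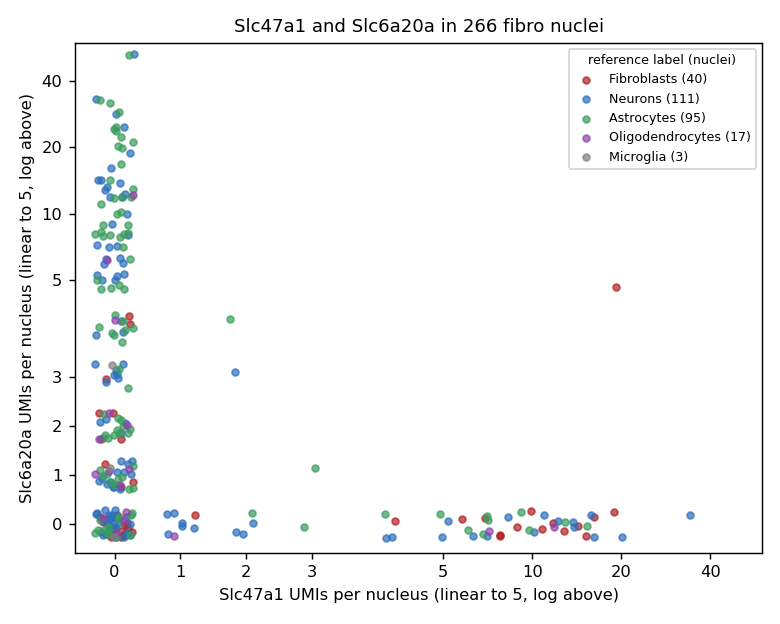
Each point is 1 of the 266 fibro nuclei, coloured by reference label, with its Slc47a1 UMIs (horizontal) and Slc6a20a UMIs (vertical), both linear to 5 UMIs and logarithmic above and with a small random offset. The points follow the axes, and only 4 nuclei have a UMI of both genes. Every label with more than 3 nuclei has points on each axis.

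Solute transporters followed the split in opposite directions. Of 15 measured meningeal transporter genes, 5 were at least 2-fold higher and 9 at least 2-fold lower in the Slc47a1 group than in the rest of the cluster, against 7.09% higher and 17.0% lower of all 7869 genes with at least 20 UMIs. Slc47a1 and Slc6a20a are in the list and were used to make the groups. The anion exchanger Slc26a7 had 114 UMIs in the Slc47a1 group and none in the Slc6a20a group, a level 52.1-fold that of the rest of the cluster (27.3 to 112). The sulfate transporter Slc26a2 was 33.5-fold higher (16.6 to 76.5), and the amino acid transporter Slc38a2 reached 4972 CPM against 501. Slc4a10, a sodium-coupled bicarbonate transporter, had UMIs in all 49 nuclei and 6151 CPM, 34.9-fold above the rest (29.0 to 42.3), and the potassium channel Kcnk5 was 36.6-fold higher. All 67 UMIs of Slc47a2 were in this group, at least 102-fold above the rest taken at a floor of 3 UMIs. Slc47a2 begins 541 bases beyond the end of Slc47a1 on the same strand, and whether reads of Slc47a1 ran into it was not tested.

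The Slc6a20a group was high in other transporters. Of the same 15 genes, 8 were at least 2-fold higher in it and 5 at least 2-fold lower than in the rest of the cluster, against 6.6% and 6.76% of all genes. Slc13a4 (sulfate) stood at 430 CPM against 19.0 in the Slc47a1 group, Slc22a8 (organic anions) at 386 against 25.4, and Slc7a11 (cystine and glutamate) at 1754 against 133. Ranbp3l, whose product takes part in the nuclear export of SMAD proteins, had 1657 of its 1855 UMIs in this group. Nnat (neuronatin) had 1180 UMIs here and 45 elsewhere in the cluster, a 24.9-fold ratio (18.5 to 34.3). The highest ratio was that of Atp13a5, a gene of the pericyte list, with 143 UMIs in 32 nuclei of this group against 3 elsewhere (45.2-fold, 15.2 to 222). Slc6a20b, the neighbouring paralog of Slc6a20a, lies 2205 bases from it and had 74 of its 85 UMIs in this group. Whether reads of either gene were counted for the other was not tested. Of 7 measured retinoic acid genes 3 were at least 2-fold higher in this group (Rdh10, Aldh1a2 and Rbp4) and 1 at least 2-fold lower (Cyp1b1). Aldh1a2 was at 541 CPM against 44.4 and 133.5 CPM in the other groups, and Osr1 had 57 of its 66 UMIs here.

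Slc1a3, high with the Astrocytes label, was higher in the Slc6a20a than in the Slc47a1 group within the 3 largest labels. In the Slc6a20a group it was at 853 CPM with the Astrocytes label (727 to 994), 467 with Neurons (379 to 570) and 595 with Fibroblasts (308 to 1040), and in the Slc47a1 group these labels had 2, 1 and 5 UMIs of it. Over all labels it was at 661 CPM in the Slc6a20a group and 50.7 CPM in the Slc47a1 group. Slc4a4, a bicarbonate transporter also on the astrocyte list, went the other way, with 1021 CPM in the Slc47a1 group and 124 in the Slc6a20a group.

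Basement membrane genes were low in the Slc47a1 group. Of 18 measured genes, 14 were at least 2-fold lower than in the rest of the cluster and none at least 2-fold higher. Of all genes 17.0% were lower and 7.09% higher. The median log2 ratio was -1.66 against -0.13 over all genes. Col4a5 and Col4a6, the chains of the type IV collagen of epithelial and meningeal basement membranes, were nearly missing. Col4a5 had no UMI in the 49 nuclei, against 202 in the Slc6a20a group and 193 in the nuclei of neither group, at least 28.8-fold lower at a floor of 3 UMIs. Col4a6 had 1 UMI against 162 and 147, with a log2 ratio to the rest of -6.08 and a counting interval of -11.39 to -3.59. The exact interval for the share of nuclei with a Col4a5 UMI, 0 of 49, reaches 7.25%, and 3 of 49 nuclei would be 6.12%. Lama1, a laminin chain of the pial basement membrane, had 2 UMIs against 364 in the rest. Col15a1 had none against 84. Lama2, another laminin chain, was lowered less, with 507 CPM against 903.5 in the rest of the cluster.

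Col4a5 (chromosome X, 141475385 to 141689234, plus strand) and Col4a6 (chromosome X, 141165403 to 141474076, minus strand) lie head to head, with 1309 bases between their starts, and both were low in the Slc47a1 group and present in the others. Their start regions are shown because the counts of the pair moved together. The windows run from 250 bases before to 50 after the RefSeq start of each gene (GRCm38.p6), 5′ to 3′ on the strand of the gene, chrX:141475169-141475468 for Col4a5 and chrX:141474027-141474326 for Col4a6. Capitals mark the GC box, GGGCGG on either strand.
Col4a5: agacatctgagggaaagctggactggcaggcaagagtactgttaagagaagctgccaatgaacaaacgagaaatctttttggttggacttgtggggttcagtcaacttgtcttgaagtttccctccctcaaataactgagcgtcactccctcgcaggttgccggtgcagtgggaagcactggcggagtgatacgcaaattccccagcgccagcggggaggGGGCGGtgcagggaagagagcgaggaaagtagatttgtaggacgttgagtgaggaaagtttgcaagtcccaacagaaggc
Col4a6: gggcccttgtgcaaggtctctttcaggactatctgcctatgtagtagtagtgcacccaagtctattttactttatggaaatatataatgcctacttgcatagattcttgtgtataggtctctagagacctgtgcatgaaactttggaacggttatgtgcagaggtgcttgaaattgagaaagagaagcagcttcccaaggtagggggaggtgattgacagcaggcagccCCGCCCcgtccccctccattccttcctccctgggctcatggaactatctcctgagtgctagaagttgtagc
Each window held the GC box once, as did 35.7% of the 32851 RefSeq windows of this length at least once. The letters CCAAT, on either strand, were in the Col4a5 window and not in that of Col4a6 (37.4% of windows), and TATAAA was in neither (13.6% of windows). A match of letters is a description and not a binding site.

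Many matrix genes were highest in the nuclei of neither group. Of 19 measured matrix genes outside the fibrillar collagens and the basement membrane, 9 were at least 2-fold higher in them and 3 at least 2-fold lower than in the rest of the cluster, against 4.96% and 6.56% of all genes. Of the 18 basement membrane genes, 8 were at least 2-fold higher and none lower. Dcn was at 590 CPM, against 302 in the Slc6a20a group and 146 in the Slc47a1 group. Cemip, which takes part in hyaluronan breakdown, was 4.17-fold above the rest (3.42 to 5.12), Pdgfra 3.31-fold, the integrin chain Itga8 8.53-fold (5.01 to 15.2), Tgfbi, a matrix protein induced by TGF-beta, 8.53-fold and Col15a1 5.03-fold (3.12 to 8.33). Lubricin, encoded by Prg4, was 4.71-fold higher, with 73 UMIs in 14 nuclei. These nuclei were the shallowest of the 3 groups, and how many would have shown either transporter at greater depth was not tested.

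**Figure D4:**
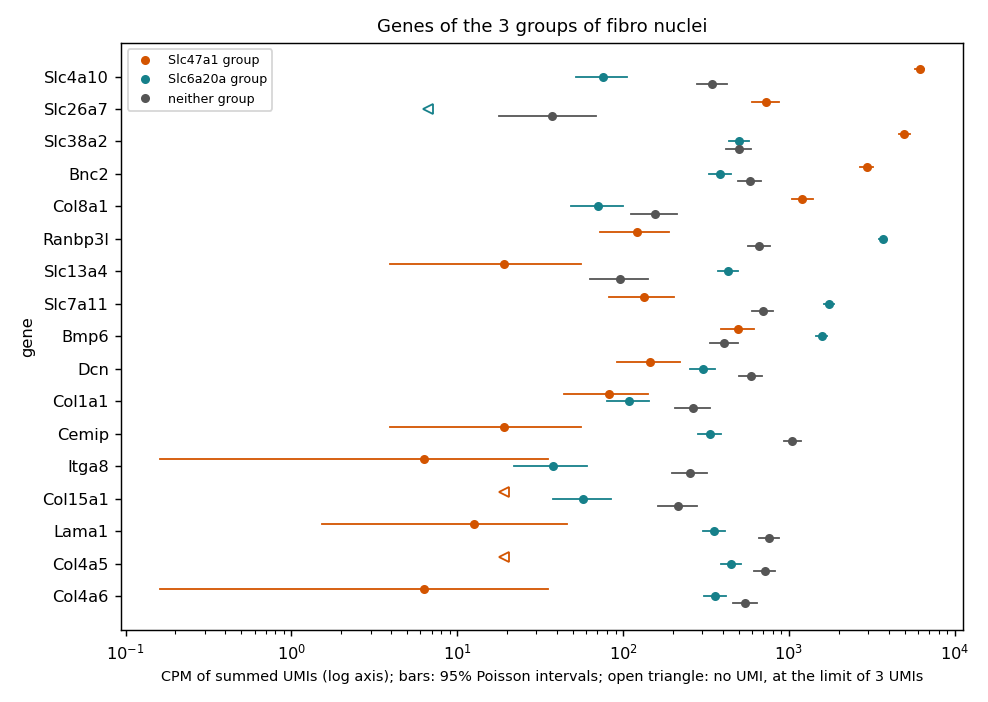
Points give the CPM of each gene over the summed UMIs of the 49, 117 and 100 nuclei of the Slc47a1, Slc6a20a and neither groups on a logarithmic axis, with 95% Poisson intervals as bars, and an open triangle marks a group with no UMI at its limit of 3 UMIs. Slc4a10 and Slc26a7 are highest in the Slc47a1 group, Ranbp3l and Slc13a4 in the Slc6a20a group, and Dcn, Lama1, Col4a5 and Col4a6 in neither group.

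Of the 16 leptomeningeal fibroblast markers none was 2-fold higher or lower in HET, against 5.18% higher and 5.83% lower of the 7869 genes with at least 20 fibro UMIs, a count of 0 that is near these shares. Their log2 ratios of HET over WT ran from -0.68 to 0.96, with a median of 0.23 and of -0.05 over all genes. Dcn had 170 UMIs over the WT nuclei (370 CPM) and 148 over the HET nuclei (353 CPM), with a log2 ratio of -0.07 (-0.39 to 0.26). Col1a2 was at 220 CPM in WT and 353 in HET (0.68, 0.31 to 1.06), and Pdgfrb at 198 and 107 CPM (-0.88, -1.43 to -0.35). The pericyte list as a whole was at 734 CPM in WT and 439 in HET, and at 113 and 71.0 CPM in all other nuclei. These intervals cover the counts of 2 libraries and not the spread between mice.

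Several matrix genes had higher levels in HET. Of 19 other matrix genes 5 were at least 2-fold higher and none lower, against 5.18% higher and 5.83% lower of all genes. The 5 included Fn1 (fibronectin, 176 CPM in WT and 365 in HET, log2 1.05, 0.65 to 1.46), Eln (elastin, 50.1 and 119 CPM) and Col6a3 (2 and 20 UMIs, log2 3.46, 1.41 to 6.60). The basement membrane list had 2 of 18 at least 2-fold higher, the paired chains Col4a1 (56.6 and 165 CPM, 1.54, 0.87 to 2.25) and Col4a2 (50.1 and 138.5 CPM, 1.47, 0.75 to 2.23), and 1 lower, Col4a4. These counts are near the shares of all genes. In all other nuclei Col4a1 and Col4a2 had log2 ratios of -0.17 and -0.44. Within the neither group of the fibro nuclei their log2 ratios were 2.06 and 1.68. Both ratios rest on few UMIs, 62 for Col4a1 over both libraries, and are given without intervals, so they are rough. With the 3 groups given equal weight in both libraries, 3 rather than 5 of the other matrix genes were at least 2-fold higher, and with a minimum of 50 UMIs 2 were. The fibrillar collagen list had 1 of 8 at least 2-fold higher, Col5a1, and none lower, also near the shares of all genes, with a median of 0.67.

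The genes with the largest ratios in HET were partly those of the Slc47a1 group. Of the 15 meningeal transporters 3 were at least 2-fold higher in HET, Slc26a7, Slc26a2 and Slc16a9, and none lower, against 5.18% and 5.83% of all genes. Anxa1, a phospholipid-binding protein of resolving inflammation, had 7 UMIs in 6 WT nuclei and 45 in 22 HET nuclei (log2 2.82, 1.66 to 4.21), and 63.5% of them were in the Slc47a1 group. Slc26a7 had 20 and 104 UMIs (2.51, 1.81 to 3.28), Crispld1 10 and 46 (2.34) and Slc26a2 15 and 60 (2.13), with 91.9%, 91.1% and 88.0% of their UMIs in the Slc47a1 group. The Slc47a1 group held 12.9% of the WT and 23.5% of the HET fibro UMIs. Within it the log2 ratios were 1.49 for Slc26a7 (0.79 to 2.27), 1.91 for Crispld1 (0.75 to 3.31) and 1.29 for Slc26a2 (0.39 to 2.29), lower than over the whole cluster. The guidance ligand Slit3 (10 and 47 UMIs) and the amino acid transporter Slc38a1 (17 and 69 UMIs) had ratios of 2.37 and 2.15, which fell to 1.06 and 1.20 outside the Slc47a1 group.

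Zbtb16, Sik1 and Nr4a1 were higher in HET in more than 1 group. Zbtb16, a transcriptional repressor induced by glucocorticoids, had 21 UMIs in 13 WT nuclei and 108 in 57 HET nuclei (2.50, 1.81 to 3.25), with ratios of 4.78, 1.75 and 2.38 in the Slc47a1, Slc6a20a and neither groups and 1.14 in all other nuclei. Sik1, a salt-inducible kinase, had 8 and 50 UMIs (2.78, 1.69 to 4.07) with ratios of 3.58, 2.46 and 2.43 in the 3 groups. Nr4a1, an immediate early nuclear receptor, had 11 and 48 (2.26, 1.29 to 3.35), with 0.26, 3.61 and 3.02. In all other nuclei both ratios were below 0, at -0.57 and -0.51. The group ratios of Zbtb16, Sik1 and Nr4a1 each rest on a part of 21, 8 and 11 WT UMIs and are given without intervals, so they are rough. Kctd8, an auxiliary subunit of GABA-B receptors, had 12 and 50 UMIs (2.19) over the whole cluster, and its ratios within the groups are not given.

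Ttr, transthyretin, which the choroid plexus secretes, was the gene most lowered in HET, from 308 UMIs in 108 nuclei to 37 in 29 (-2.92, -3.46 to -2.43). It was lower to a like degree in all other nuclei (-3.22) and in each of the 3 groups (-2.86, -2.83 and -3.35). The choroid plexus list of 5 genes stood at 775 CPM in WT and 129 in HET fibro nuclei, and at 409 and 47.6 CPM in all other nuclei. In the fibro nuclei Ttr gave 308 of the 356 WT and 37 of the 54 HET UMIs of the list, so the list mostly repeats Ttr. The only other gene of the list with at least 20 UMIs, Kl, had a log2 ratio of -0.67. Otx2 had no UMI and Folr1 had 4 in the fibro nuclei, and the part of free choroid plexus RNA in the result was not tested. Ribosomal protein genes were likewise lower in both sets of nuclei, at 8679 and 5666 CPM in the fibro nuclei and 5446 and 3011 CPM in all others, and their median log2 ratio in the fibro nuclei was -0.61.

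Several of the other genes lower in HET had most of their UMIs in the Slc6a20a group, which held 59.3% of the WT and 42.6% of the HET fibro UMIs. Il31ra, a cytokine receptor chain, had 83 UMIs in 19 WT nuclei and 12 in 4 HET nuclei (-2.66, -3.67 to -1.78), with 80.0% of its UMIs in that group and a ratio of -1.80 inside it. Hs3st3a1, a heparan sulfate sulfotransferase, had 46 and 8 UMIs (-2.39, -3.68 to -1.29) and a ratio of -1.90 inside the group. The growth factor Igf1 had 54 and 11 UMIs (-2.16, -3.25 to -1.21) and a ratio of -1.89 inside the group. For Il31ra, Hs3st3a1 and Igf1 the ratios inside the group rest on a part of these UMIs and are given without intervals, so they are rough. The glutamine transporter Slc38a3 had 45 and 10 UMIs (-2.04). Cfap97 had 43 and 11 UMIs (-1.83), 20 of them in a single nucleus, and without that nucleus its ratio was -0.93. For Il31ra, Hs3st3a1 and Igf1 the ratio in all other nuclei lay between -0.11 and 0.03. Atp5o, C430049B03Rik, Pir and Ring1 made up the 10 lowest, with ratios of -2.05 to -1.92, and their ratios were below 0 in all other nuclei too.

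**Figure D5:**
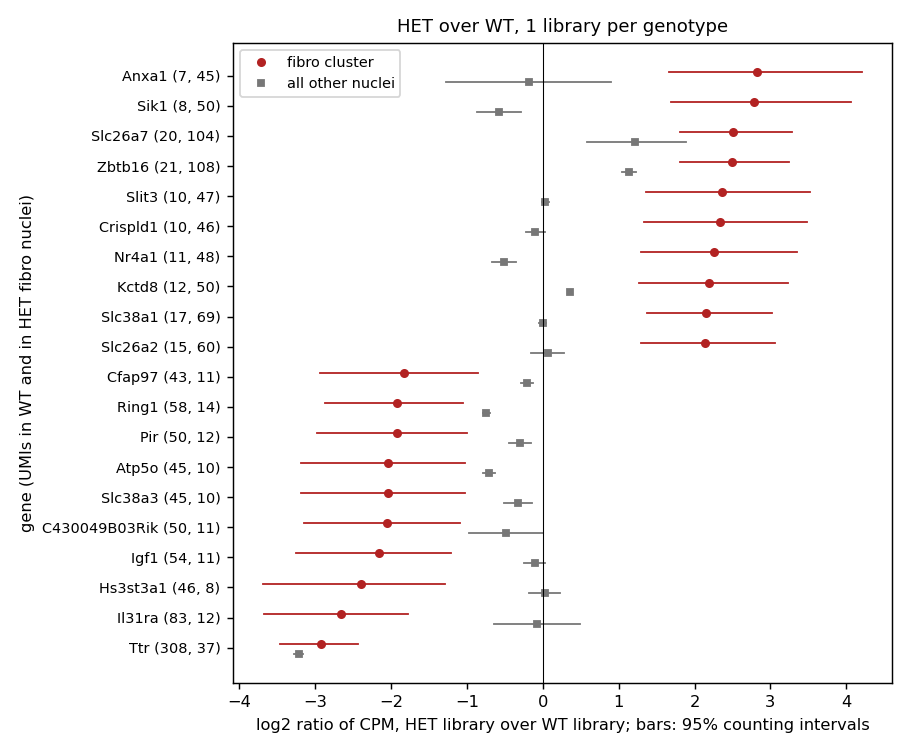
Points give the log2 ratio of CPM, HET over WT, in the fibro cluster (circles) for the named genes, the 10 highest and the 10 lowest, and in all other nuclei (squares), with 95% counting intervals as bars and the WT and HET fibro UMIs in parentheses. Ttr is low in both sets of nuclei, whereas Anxa1, Sik1 and Il31ra depart from 0 in the fibro cluster and not, or in the other direction, in all other nuclei.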

How the data were processed

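The authors prepared 10x Chromium 3′ v3.1 libraries from nuclei of frozen brainstem, aligned them with Cell Ranger (version not given in the sources used here) to its default mm10 reference, and filtered and clustered the nuclei in Seurat 4.1. The counts were deposited by the authors as UMIs per gene and nucleus, 25556 genes in 18281 nuclei, after removal of mitochondrial and hemoglobin genes, of nuclei with few genes or much mitochondrial RNA, and of nuclei called doublets by a caller not named. The percent values of mitochondrial and ribosomal UMIs and the doublet score are the authors' deposited values per nucleus. In the fibro nuclei the median mitochondrial value was 0.556% in WT and 0.931% in HET, so the RNA differed in this respect. Clusters, clusterings and reference labels were used as deposited, and no read was realigned. Samples were mapped to WT and HET by their titles, 1 library each, and no column was left without a sample.

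UMIs were summed over groups of nuclei and scaled to CPM. Ratios of CPM have exact conditional binomial intervals at 95%, a gene with no UMI in a group is compared at a floor of 3 UMIs over that group, and genes with at least 20 UMIs over both groups were counted as 2-fold higher or lower. Thinning drew 1000 UMIs from each nucleus. The members, the lists of marker and functional genes, written by hand, and the alternatives were chosen with earlier results of these data known, and the split by Slc47a1 and Slc6a20a after the counts had been seen. Genes named are Dcn, Col1a2 and Pdgfrb, the 15 with the largest ratio of the cluster to all other nuclei (at least 50 UMIs in 20 nuclei), the 8 with the largest ratio of a label or group to the rest of the cluster (at least 30 UMIs in 10 nuclei), and the 10 with the largest and 10 with the smallest ratio of HET over WT (at least 50 UMIs in 20 nuclei and an interval without 0), from which examples were taken. Other members of lists, such as Col4a5, were named after their values were seen. Promoter windows are RefSeq's and gene positions GENCODE vM21's, both on GRCm38. The ratio and class steps were tested on simulated data. Tables were made in Python 3.11.15 (pandas 2.3.3, numpy 2.4.6), intervals with scipy 1.17.1 and plots with matplotlib 3.10.9, with edgeR 4.0.16 in R 4.3.3 for an alternative scaling of the counts by TMM. Results for 1 gene of the astrocyte list are not reported here.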

Additional observations from a re-analysis of the deposited data

Results flagged for a closer look

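Sik1 and Nr4a1 moved in opposite directions in the fibro cluster and in all other nuclei. The log2 ratio of HET over WT for Sik1 was 2.78 in the fibro nuclei and -0.57 in all other nuclei, and the counting intervals of both leave out 0. For Nr4a1 it was 2.26 in the fibro nuclei and -0.51 in all other nuclei. There was 1 library per genotype, and the difference between the fibro cluster and the other nuclei was not tested for either gene.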

How the results depend on the processing

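No paired analysis was possible because each genotype had 1 library, so the shared replicate number 1 pairs no samples, and no replicate could be left out. Of 153 recomputed main values under alternatives, 135 stayed within their interval or, for counts, within 1.5 times. A change of sign was looked for only in named genes at least 2-fold higher or lower, and not in these main values. With at least 2000 UMIs per nucleus the WT share of fibro nuclei was 1.19%, and without the 5% highest doublet scores the HET share was 0.665%. Thinned to 1000 UMIs, 84.2% of nuclei were fibroblast-marked. With the Neurons label, the mean over nuclei of CPM gave 6369 for the fibroblast list, 565 for the pericyte list and 4036 for the neuron list, and leaving out the highest doublet scores gave 579 for the pericyte and 4375 for the neuron list. For the pericyte list with the Fibroblasts label the latter gave 590 CPM. A minimum of 50 UMIs left 133 genes at least 2-fold higher and 101 lower in HET in place of 408 and 459, and no minimum gave 1278 and 1552. The following alternatives were chosen after seeing the data. With 1 UMI in place of 2 the Slc6a20a group was 55.6% of fibro nuclei, 62.1% in WT and 49.3% in HET, and with 3 UMIs it was 35.3% in all and 28.4% in HET. Of 246 values of named genes, 240 stayed within their interval, and the other 6 kept their sign: Slc26a7 at 1.70 with the 3 groups at equal weight, Slit3 at 1.06, Slc38a1 at 1.20 and Nr4a1 at 3.41 outside the Slc47a1 group, Il31ra at -3.76 without nuclei rich in neuron markers and, by an alternative listed earlier, Hs3st3a1 at -4.10 without the highest doublet scores. The cause of these shifts was not tested. The median depth of 2637 UMIs limits how many nuclei can be placed by 1 gene.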

Other observations

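The 3 transporter groups also differed in secreted signals. Bmp6, a bone morphogenetic protein, stood at 1575 CPM in the Slc6a20a group, 495 in the Slc47a1 group and 408 in neither, and Bmp7 at 173, 25.4 and 66.8 CPM. Bmp4 and Bmp5 had another order, with 95.1 and 254 CPM in the Slc47a1 group, 33.3 and 68.8 in the Slc6a20a group and 63.0 and 156 in neither. Igf2, an insulin-like growth factor, was at 118 CPM in the Slc6a20a group against 12.7 and 33.4, and Igfbp5, which binds such factors, at 583 CPM in the Slc47a1 group against 42.1 and 104. Of 19 measured growth factor genes, 5 were at least 2-fold higher and 9 at least 2-fold lower in the Slc47a1 group than in the rest of the cluster, against 7.09% and 17.0% of all genes. The transcription factors Bnc2 and Tbx15 were at 2942 and 583 CPM in the Slc47a1 group against 458 and 61.1 CPM in the rest, while Zic1 and Zic4 lay between 152 and 222 CPM in all 3 groups.

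Of 4 measured arachnoid barrier genes, Cdh1 and Abcg2 were at least 2-fold higher in the Slc47a1 group than in the rest of the cluster, against 7.09% of all genes, and none was at least 2-fold lower. Of 6 measured endothelial genes 2 were higher, Abcb1a and Mecom, and 2 lower, Flt1 and Slco1a4, against 7.09% and 17.0% of all genes. The drug exporter Abcb1a was at 254 CPM against 36.1 in the rest of the cluster, Abcg2, another exporter, at 399.5 against 115, and Cdh1, the cadherin that joins arachnoid barrier cells, at 146 against 33.3. Dpp4, also on the arachnoid barrier list, was at 101 and 98.5 CPM, and the keratins Krt8 and Krt18 had 1 UMI each in the whole cluster. The endothelial gene Cldn5 had 11 UMIs in the cluster, 12.5 CPM against 1783 in the endo cluster.

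In the WT library 70 of the 138 UMIs of the pituitary hormone gene Gh were in fibro nuclei, 68 of them in 1 nucleus, and 39 of the 428 UMIs of Prl, another pituitary hormone gene. The HET library had no UMI of either gene.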
